A study of Mus musculus with 81 samples.

Results

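The genes described are Epop, which encodes a Polycomb-associated protein, and 9 subunits of the Polycomb repressive complexes (Ezh1, Ezh2, Suz12, Eed, Jarid2, Mtf2, Bmi1, Ring1 and Rnf2). The list was set by name, and Epop was chosen by its low CPM after both knockdowns, so its values in those comparisons describe the choice and carry no test. These 10 genes were read out of 55536 genes in the count table of the depletion experiment, 20801 in that of the training experiment and 24498 in that of mice without virus, and their loci out of 21938 protein-coding loci.

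RNA and chromatin came from area CA1 of the hippocampus of male C57BL/6J mice about 9 to 12 weeks old. The series comprised 81 samples, 26 of RNA and 55 of chromatin with inputs counted. In the depletion experiment, AAV-DJ carrying a short hairpin RNA against H2afy (shH2afy; the gene of the histone variant mH2A1), against H2afy2 (shH2afy2; the gene of mH2A2) or a scrambled sequence (shScr) was injected into CA1 of 3 mice each, and RNA was taken 2 weeks later. In the training experiment, mice with shH2afy or shScr were either trained by contextual fear conditioning, the pairing of a context with a foot shock, and killed 1 h later, or kept in the home cage (3 mice in each of 4 groups). Mice without virus were 2 trained mice killed after 1 h and 3 home cage mice. ChIP-seq covered mH2A1 and mH2A2 at 30 min (2 trained and 3 untrained mice each), mH2A1 (2 and 2) and mH2A2 (3 and 3) at 1 h, and mH2A1 at 6 h (5 and 5). The hairpin was driven by the U6 promoter and GFP by the CMV promoter, neither of which is confined to neurons, and RNA of mice with virus came from bulk tissue of the infected region, in which cell types were not separated.

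Polycomb proteins keep genes silent through histone marks. Polycomb repressive complex 2 (PRC2) methylates lysine 27 of histone H3 through Ezh2 or its relative Ezh1, with Eed and Suz12 as the other core subunits, and Polycomb repressive complex 1 (PRC1) attaches ubiquitin to histone H2A through Ring1 or Rnf2. Ezh2 is known for its presence in dividing cells and Ezh1 for its presence in resting cells such as neurons. Jarid2, Mtf2 and Epop join PRC2 in alternative forms, and Epop also binds Elongin B and C. MacroH2A is a histone H2A variant with a large extra domain that is enriched over silent chromatin.

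Promoter sequence (250 bases before to 50 bases after the start of the RefSeq gene, build GRCm38.p6) was at hand for 9 of the 10 genes, Epop being the exception. Those of Ring1, whose start lay inside mH2A2 domains more often than that of any other gene described here, and of Ezh2, the subunit with the largest RNA change, follow with each CG in capitals. Ring1 (chr17:34024631-34024930, minus strand) and Ezh2 (chr6:47594981-47595280, minus strand) are printed in the direction of transcription.
Ring1: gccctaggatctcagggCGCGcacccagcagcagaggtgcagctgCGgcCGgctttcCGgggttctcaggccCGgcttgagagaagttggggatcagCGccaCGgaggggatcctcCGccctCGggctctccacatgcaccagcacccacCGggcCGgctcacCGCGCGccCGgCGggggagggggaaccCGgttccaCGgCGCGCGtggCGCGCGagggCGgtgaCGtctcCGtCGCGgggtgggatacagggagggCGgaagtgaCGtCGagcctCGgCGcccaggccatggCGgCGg
Ezh2: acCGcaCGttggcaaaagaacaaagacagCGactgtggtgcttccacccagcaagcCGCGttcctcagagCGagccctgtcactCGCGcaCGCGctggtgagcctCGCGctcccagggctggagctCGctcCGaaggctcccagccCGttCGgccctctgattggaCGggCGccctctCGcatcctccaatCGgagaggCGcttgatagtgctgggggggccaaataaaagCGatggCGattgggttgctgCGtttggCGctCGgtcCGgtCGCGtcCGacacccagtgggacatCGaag

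Both stretches were dense in CG. Ring1 held 37 CG in its 300 bases, a number reached by 5.58% of 32851 RefSeq promoters, and Ezh2 held 31, reached by 10.6%, against a median of 7 over all promoters. Suz12 held 41, reached by 3.46%. The E2F-type words TTTNGCGC and TTTCCCGC, searched on both strands, occurred in 1.38% and 1.07% of promoters, and in 2.39% at least one of them did. Among the 9 genes Ezh2 had one match to TTTNGCGC and Suz12 one match to TTTCCCGC. Both words hold a CG, and the shares above are over all promoters and not over those as dense in CG. They therefore cannot show whether matches were more frequent among the 9 genes than their CG content gives. These matches are descriptions of letters and not of bound sites.

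Library totals were 9954415 to 18750763 counts in the depletion experiment, 81351559 to 92226421 in the training experiment and 48764368 to 58649687 in mice without virus. Values are given as CPM, counts scaled to the library total after TMM scaling within an experiment. The targets did not behave alike. In the depletion experiment H2afy was at 43.5, 44.5 and 38.7 CPM in shH2afy mice and at 60.6, 59.2 and 50.6 CPM in shScr mice (log2 fold change -0.37, edgeR adjusted p = 0.031, not past the threshold of 0.01 used for this experiment). H2afy2 was at 13.2, 8.21 and 7.74 CPM in shH2afy2 mice and at 18.2, 19.0 and 18.2 CPM in shScr mice (log2 -0.95, edgeR adjusted p = 0.0907). H2afy of the training experiment was not lower in the libraries labelled shH2afy, with 99.2, 93.8 and 89.1 CPM in trained mice, against 85.0, 86.2 and 81.4 CPM in trained shScr mice, and 87.0, 87.7 and 87.7 CPM in untrained mice, against 81.7, 82.5 and 79.2 CPM in untrained shScr mice (log2 0.16, edgeR adjusted p = 0.0793 in trained, and 0.13, adjusted p = 0.0868 in untrained mice). These H2afy counts include reads over introns, whose part in the missing fall was not tested. Differences below that rest on the libraries labelled shH2afy of the training experiment are given as differences between labels.

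Cell type markers also moved with the shH2afy label. In the depletion experiment the summed level of 8 markers of dividing cells was 75.9 to 108.3 CPM in shH2afy mice, 6.121 to 13.47 CPM in shH2afy2 mice and 8.625 to 19.09 CPM in shScr mice, and 7 of the 8 were called higher in shH2afy than in shScr mice. The 6 microglial markers summed to 1169 to 1772 CPM in shH2afy mice and 255.1 to 378.2 CPM in shScr mice (6 of 6 higher), and the 5 pan-neuronal markers to 2498 to 3787 CPM in shH2afy mice and 4804 to 6341 CPM in shScr mice (1 of 5 lower). Inhibitory neuron markers were lower in 5 of 7, CA1 pyramidal markers lower in 2 of 6 and astrocyte markers higher in 3 of 6. No marker of dentate granule neurons (4), oligodendrocytes (5) or endothelium (4) was called. Of all genes 12.6% were called higher and 4.47% lower. Their part in the results below was not tested. Markers of B and plasma cells reached 828.8 CPM in shH2afy mice but were as low as 1.64 CPM in one of them, so these mice differed among themselves.

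In mice without a targeting virus Epop had the highest level of the 10 genes per kilobase of exon. In shScr mice of the depletion experiment its median was 27.4 CPM per kb, with mice from 24.0 to 29.3. Bmi1 (15.2 CPM per kb) and Rnf2 (12.9), a PRC1 scaffold and a PRC1 ubiquitin ligase, came next, followed by Ezh1 (11.2), Suz12 (9.66) and Ring1 (9.20). Each of these last 5 genes overlapped with its neighbour in this order over the 3 mice. Mtf2 (5.98), Jarid2 (4.39) and Eed (3.62) were lower, and only Jarid2 and Eed overlapped among them. Ezh2 was the lowest at 0.73 CPM per kb, with mice from 0.599 to 0.81. In untrained mice without virus the order of the 10 medians was the same, with 28.4 CPM per kb for Epop, 9.97 for Ezh1 and 0.453 for Ezh2. In the training experiment reads had been counted over introns as well, which dilutes genes in different measure, so its levels are not set beside these.

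Epop was low after either knockdown. It was at 10.9, 15.0 and 16.5 CPM in shH2afy mice, at 32.7, 30.7 and 30.8 CPM in shH2afy2 mice and at 67.8, 63.3 and 55.6 CPM in shScr mice. The 3 groups did not overlap, and the 3 shH2afy2 mice lay close together between the other groups. The mean of shH2afy mice was 14.15 ± 2.93 CPM (SD, n = 3), that of shH2afy2 mice 31.4 ± 1.16 CPM and that of shScr mice 62.27 ± 6.16 CPM. On the log2 scale the difference was -2.07 (SE 0.169; 23.8% of the shScr level) for shH2afy against shScr, -1.01 (SE 0.0884; 49.5%) for shH2afy2 against shScr, and -1.12 (SE 0.171) for shH2afy against shH2afy2. Leaving out any 1 mouse gave -2.20 to -1.91 for shH2afy and -1.06 to -0.96 for shH2afy2. Both comparisons with shScr share the shScr mice. In bulk tissue fewer cells of a type and less RNA per cell cannot be told apart.

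**Figure D1:**
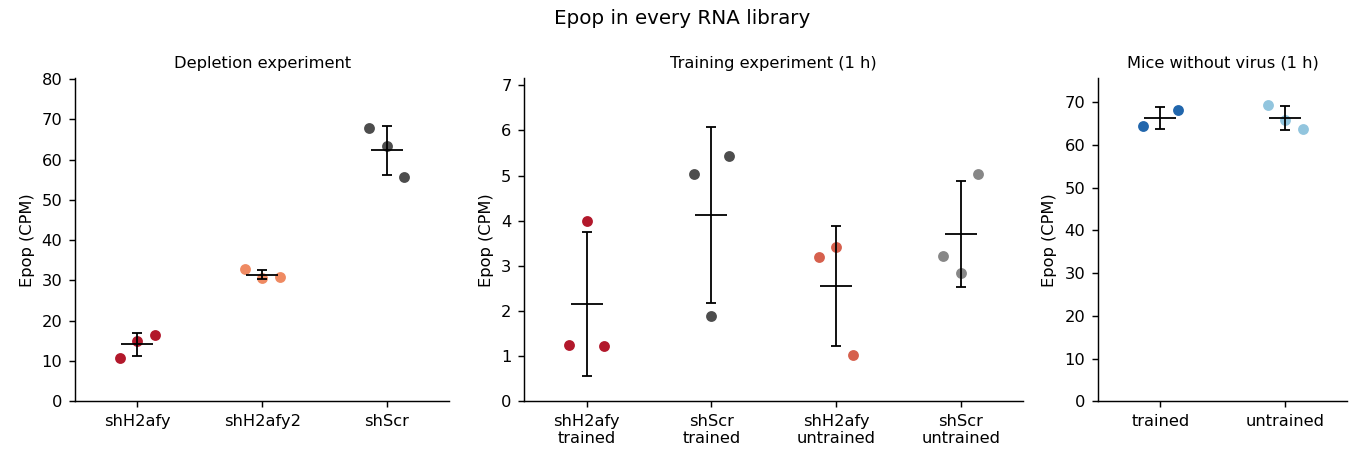
Epop level in CPM (vertical axis, from 0) in each RNA library, by group, in the depletion experiment, the training experiment and mice without virus. Points are mice, horizontal lines are means and bars are SD. The depletion groups are separate, at 14.15, 31.4 and 62.27 CPM on average, the 4 groups of the training experiment overlap, and trained and untrained mice without virus lie between 63.7 and 69.3 CPM.

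Relative to neuronal markers the order of the groups was the same. Per 1000 CPM of the 5 pan-neuronal markers, a ratio chosen after the data were seen, Epop was at 4.36, 5.34 and 4.37 CPM in shH2afy mice, 5.63, 6.40 and 5.86 CPM in shH2afy2 mice and 14.1, 9.99 and 11.5 CPM in shScr mice. Both knockdown groups lay below every shScr mouse, while the gap between the knockdown groups narrowed to 5.34 against 5.63 CPM at its closest. Epop was chosen by its values in these libraries, so this ratio is a description as well and carries no test. The 6 markers of CA1 pyramidal neurons summed to 392.1 to 543.2 CPM in shH2afy, 937.4 to 1263 CPM in shH2afy2 and 869.1 to 1876 CPM in shScr mice. Their part in the Epop values was not tested. In mice without virus the ratio was 11.3 and 11.7 CPM in trained and 11.0, 11.2 and 9.99 CPM in untrained mice.

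Epop had a low CPM in the training experiment and varied between mice of a group. Reads over introns were counted there, and Epop has no intron in the annotation (2.314 kb of gene and of exon). Its CPM is therefore not set beside that of the other experiments. Trained mice of the label shH2afy had 1.26, 3.99 and 1.22 CPM, and trained shScr mice 5.04, 1.88 and 5.44 CPM. Untrained mice of the label shH2afy had 3.20, 3.43 and 1.03 CPM, and untrained shScr mice 3.22, 2.85 and 5.03 CPM. Both pairs of groups overlapped, with 1 high mouse among the trained shH2afy mice and 1 low mouse among the trained shScr mice. The log2 difference between shH2afy and shScr was -0.92 (SE 0.60, edgeR adjusted p = 0.247) in trained and -0.52 (SE 0.441, edgeR adjusted p = 0.369) in untrained mice, neither past 0.05. Leaving out any 1 mouse gave -1.74 to -0.64 in trained mice (edgeR adjusted p = 0.0402 to 0.486). Of these 6 fits only 1 passed 0.05, the one without the second shH2afy mouse, the highest of its group. In untrained mice the range was -0.80 to -0.14 (edgeR adjusted p = 0.232 to 0.713). The depth was not small, with 223 to 406 Epop reads in each untrained shScr library. Mean Epop was lower with the label shH2afy in both pairs of groups, without passing the test in either.

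Training itself left Epop within the spread between mice. The log2 difference between trained and untrained mice was 0.15 (edgeR adjusted p = 0.953) with shScr and -0.24 (edgeR adjusted p = 0.998) with the label shH2afy, and the interaction of training and virus was -0.41 (SE 0.818, edgeR adjusted p = 1). In mice without virus Epop was at 64.5 and 68.1 CPM after training and at 69.3, 65.8 and 63.7 CPM in the home cage, a log2 difference of -0.003 (SE 0.0562, edgeR adjusted p = 0.985).

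Across libraries a number of genes followed Epop closely. By Pearson correlation of log2 CPM over the 9 depletion libraries and 13911 genes, the nearest were Nat8l (r = 0.984), the enzyme that makes N-acetylaspartate, Zfp523 (0.981), Arhgap26 (0.980), Nyap1 (0.977) and Ephx4 (0.976). Over the 12 training libraries and 13639 genes they were Sncb (r = 0.988), which encodes beta-synuclein, L3mbtl1 (0.976), Kcnj9 (0.974), a potassium channel subunit, Slc4a3 (0.973) and Mast1 (0.971). Of the 9 subunits, Ezh1 ran with Epop most closely in the depletion libraries (r = 0.72), whereas Eed (-0.93) and Ezh2 (-0.93) ran opposite to it. In the training libraries Ring1 ran with Epop (0.75), and Suz12 (-0.76), Jarid2 (-0.74), Eed (-0.72) and Ezh2 (-0.71) ran opposite. These values describe libraries that share group differences, depth and cell mixture.

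Among the core subunits of PRC2, Ezh2 was higher in shH2afy mice. Ezh2, the methyltransferase, was at 12.4, 12.7 and 8.95 CPM in shH2afy mice, at 4.58, 6.55 and 6.64 CPM in shH2afy2 mice and at 4.00, 4.88 and 5.41 CPM in shScr mice. All shH2afy mice were above all others, whereas shH2afy2 and shScr mice overlapped. The log2 difference of shH2afy from shScr was 1.32 (SE 0.215, edgeR adjusted p = 0.00382), higher in 3 of 3 mice. Ezh2 was the 1 subunit of 9 called at 0.01 in this comparison, where 17.1% of all 16179 genes tested were called. The call was lost without the first or the second shH2afy mouse or any 1 shScr mouse (edgeR adjusted p = 0.0105 to 0.0221), with log2 differences of 1.14 to 1.38. Between shH2afy and shScr mice the Ezh2 value moved with that of the dividing-cell markers (75.9 to 108.3 CPM in shH2afy mice and 8.625 to 19.09 CPM in shScr mice). In shH2afy2 mice these markers, at 6.121 to 13.47 CPM, lay below or within the shScr range, while Ezh2 lay within or above its own. The part of the markers in the Ezh2 value was not tested.

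Eed and Suz12 were also high in shH2afy mice without passing the test. Eed, which reads the methyl mark, was at 22.6, 22.7 and 18.4 CPM in shH2afy mice and at 13.2, 13.9 and 14.9 CPM in shScr mice (log2 0.66, SE 0.141, edgeR adjusted p = 0.0108). DESeq2 called it (adjusted p = 0.0014), as did edgeR with all libraries of the experiment in the fit (adjusted p = 0.00557) or without the third shH2afy mouse (adjusted p = 0.00594). Suz12, a scaffold of the complex, was at 68.0, 53.0 and 63.1 CPM in shH2afy mice, at 55.0, 66.4 and 65.8 CPM in shH2afy2 mice and at 44.6, 51.5 and 47.8 CPM in shScr mice. Both knockdown groups were above every shScr mouse (log2 0.41, edgeR adjusted p = 0.0341 for shH2afy, and 0.35, adjusted p = 0.13 for shH2afy2). These 3 core subunits were the 3 of 9 whose shH2afy and shScr groups did not overlap, a smaller share than the 48.6% of all genes.

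**Figure D2:**
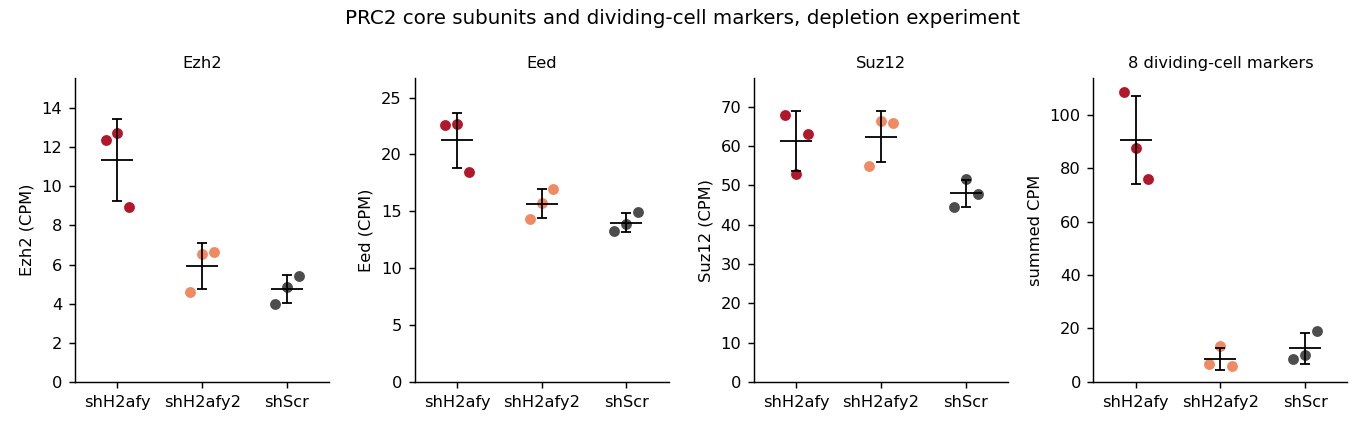
Levels in CPM (vertical axes, from 0) of Ezh2, Eed and Suz12, and the summed CPM of 8 markers of dividing cells, in the depletion experiment. Points are mice, lines are means and bars are SD (n = 3). Ezh2, Eed and the dividing-cell markers are highest in shH2afy mice, while Suz12 is above shScr in both knockdown groups.

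Ezh1 and the remaining subunits moved less. Ezh1, the methyltransferase of resting cells, was at 66.5, 61.8 and 75.7 CPM in shH2afy mice, at 87.9, 84.4 and 82.6 CPM in shH2afy2 mice and at 75.6, 94.9 and 83.4 CPM in shScr mice. The shH2afy and shScr groups touched, with 1 shH2afy mouse just above the lowest shScr mouse (log2 -0.26, SE 0.124, edgeR adjusted p = 0.156). The accessory subunits Jarid2 (log2 -0.07) and Mtf2 (0.01), which help bring PRC2 to its targets, and the PRC1 subunits Bmi1 (0.01), Ring1 (-0.17) and Rnf2 (0.24) had edgeR adjusted p of 0.308 or more against shScr. The median over the 9 subunits was 0.01 on the log2 scale, as over all genes.

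With shH2afy2 no subunit was called. edgeR called 0 of 15609 genes in that comparison (0%), with 3238 at an unadjusted p under 0.05 (20.7%), and DESeq2 called 486 genes and none of the 9 subunits. The subunits at an edgeR unadjusted p under 0.05 were 2 of 9, Suz12 (0.00955) and Mtf2 (log2 -0.29, 0.0286). Suz12 was the 1 subunit of 9 whose groups did not overlap, against 25.5% of all genes. Ezh2 had a log2 difference of 0.29 (SE 0.222, edgeR adjusted p = 0.501) and Eed of 0.13 (SE 0.125, adjusted p = 0.582).

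Set directly against each other, shH2afy and shH2afy2 mice gave no subunit past the threshold. The log2 difference of shH2afy from shH2afy2 was 0.96 for Ezh2 (SE 0.213, edgeR adjusted p = 0.0124), 0.47 for Eed (SE 0.129, adjusted p = 0.0277) and 0.003 for Suz12 (SE 0.123). At 0.01 edgeR called 0 of 9 subunits and 2699 of 16294 genes (16.6%), with 4 of 9 subunits and 46.8% of all genes at an unadjusted p under 0.05, and DESeq2 called Ezh2 (adjusted p = 0.000742). Groups did not overlap for 5 of 9 subunits and for 51.4% of all genes.

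Between the shH2afy and shScr labels of the training experiment, 3 of 10 genes differed in trained mice and 4 of 10 in untrained mice, at 0.05. These shares were no larger than those of all genes, of which 46% were called in trained and 47.9% in untrained mice. The groups of 3 genes in trained and 4 in untrained mice did not overlap, against 58.9% and 60.1% of all genes.

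Eed was higher and Mtf2 and Bmi1 lower in both comparisons. Eed was at 24.2, 23.0 and 26.4 CPM in trained shH2afy mice, against 20.2, 21.5 and 21.1 CPM in trained shScr mice (log2 0.23, edgeR adjusted p = 0.0291), and at 22.4, 24.6 and 26.3 CPM in untrained shH2afy mice, against 19.5, 19.7 and 19.1 CPM in untrained shScr mice (0.35, adjusted p = 0.00893). Mtf2, which binds unmethylated CG-rich DNA, was at 58.4, 55.2 and 64.1 CPM in trained shH2afy mice, against 76.9, 77.0 and 75.9 CPM in trained shScr mice (log2 -0.37, SE 0.0642, edgeR adjusted p = 0.00521). In untrained mice it was at 68.2, 62.6 and 62.4 CPM with shH2afy, against 82.6, 83.6 and 78.3 CPM with shScr (log2 -0.32, SE 0.0632, edgeR adjusted p = 0.00524). Mtf2 kept its call in both comparisons whichever 1 mouse was left out, and the depletion experiment had shown no such difference (log2 0.01).

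Bmi1, which joins Ring1 and Rnf2 in PRC1, was at 26.3, 24.0 and 28.6 CPM in trained shH2afy mice, against 31.4, 33.2 and 30.1 CPM in trained shScr mice (log2 -0.26, edgeR adjusted p = 0.0341). In untrained mice it was at 24.0, 23.7 and 27.7 CPM with shH2afy, against 29.1, 32.6 and 32.9 CPM with shScr (log2 -0.31, edgeR adjusted p = 0.0199). Ezh2 was called in untrained mice, with 27.4, 30.1 and 29.9 CPM with shH2afy, against 26.5, 24.4 and 22.3 CPM with shScr (log2 0.27, edgeR adjusted p = 0.038), and not in trained mice (0.15, adjusted p = 0.127). Whether the Ezh2 difference itself differed with training was tested by the interaction (log2 -0.12, SE 0.114, edgeR adjusted p = 1). Leaving out 1 mouse ended the Bmi1 call in trained mice whichever of 5 of the 6 mice it was (adjusted p = 0.0586 to 0.0986), the Eed call in trained mice for 5 of 6 (0.0518 to 0.124) the Bmi1 call in untrained mice for 3 of 6 (0.0582 to 0.0648) and the Ezh2 call in untrained mice for 4 of 6 (0.0872 to 0.121).

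Beside these values, dividing-cell markers summed to 28.66 to 33.93 CPM in trained mice labelled shH2afy and 7.505 to 13.47 CPM in trained shScr mice, and to 27.32 to 43.82 CPM in untrained mice labelled shH2afy and 7.464 to 8.419 CPM in untrained shScr mice. All 8 were called higher in both. Pan-neuronal markers summed to 3408 to 3791 CPM in trained mice labelled shH2afy and 5322 to 6265 CPM in trained shScr mice, and to 3352 to 3702 CPM in untrained mice labelled shH2afy and 5637 to 5779 CPM in untrained shScr mice, with 4 of 5 called lower in both. Their part in the differences of the 10 genes was not tested.

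**Figure D3:**
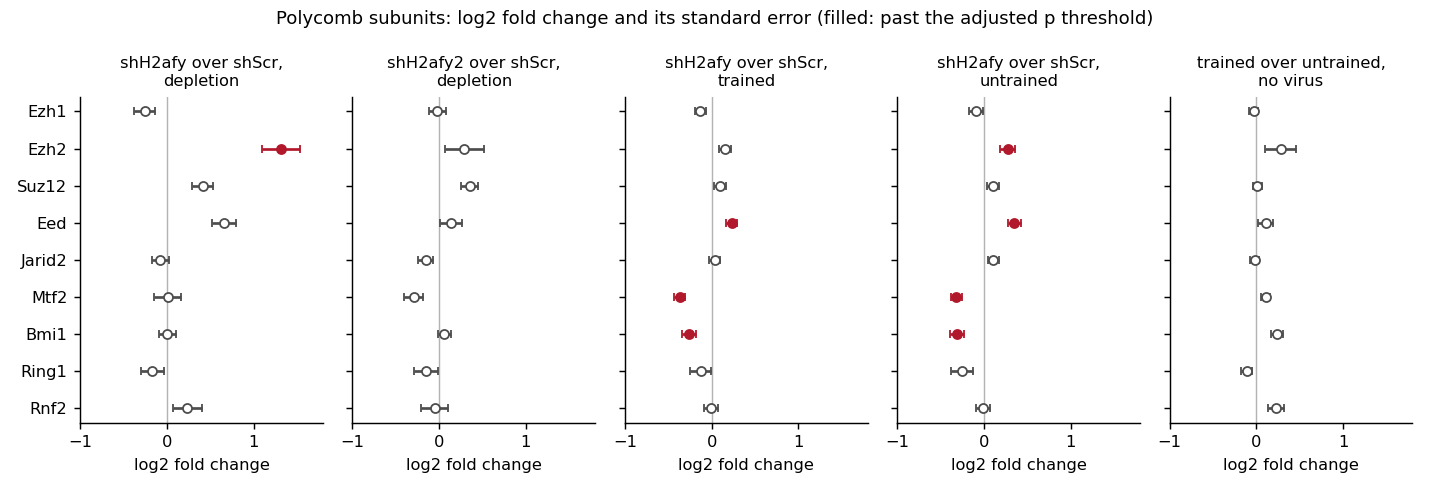
Log2 fold change (horizontal axes) of each of the 9 subunits in 5 comparisons, with bars for the standard error. Filled red points passed the adjusted p threshold of the experiment (0.01 in the depletion experiment and in mice without virus, 0.05 in the training experiment). Ezh2 stands at 1.32 for shH2afy in the depletion experiment, and Mtf2 and Bmi1 lie below 0 for the label shH2afy in trained and untrained mice.

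Fear conditioning changed none of the 10 genes past the threshold in any of these mice. Between trained and untrained shScr mice edgeR called 0 of 15424 genes (0%), with 1382 at an unadjusted p under 0.05, and DESeq2 called 251, none of them among the 10. Eed (20.2, 21.5 and 21.1 CPM trained, against 19.5, 19.7 and 19.1 CPM untrained) and Mtf2 (76.9, 77.0 and 75.9 CPM trained, against 82.6, 83.6 and 78.3 CPM untrained) were the 2 of 10 without overlap, where 14.8% of all genes had none. With the label shH2afy edgeR called 0 of 15866 genes (0%; 613 at an unadjusted p under 0.05; 47 by DESeq2), and the groups of all 10 genes overlapped, against 9.19% of all genes without overlap. The interaction gave 0 of 15997 genes by edgeR (0%; 333 at an unadjusted p under 0.05) and 0 by DESeq2. None of the 10 genes had an unadjusted p under 0.05 in these 3 tests.

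In mice without virus edgeR called 15 of 15639 genes (0.0959%) and none of the 10, and DESeq2 called 475 and none of the 10. Bmi1 was at 55.0 and 51.7 CPM in trained mice, against 41.5, 47.8 and 46.1 CPM in untrained mice (log2 0.24, SE 0.0714, edgeR unadjusted p = 0.0121, adjusted p = 0.142). Rnf2 was at 52.2 and 48.2 CPM in trained mice, against 38.7, 47.3 and 42.7 CPM in untrained mice (log2 0.23, edgeR unadjusted p = 0.0372, adjusted p = 0.223). Both genes were higher in 2 of 2 trained mice than in every untrained mouse. These were the 2 genes of 10 at an unadjusted p under 0.05, the same share as the 20% of all genes, and with Mtf2 (log2 0.11) and Ring1 (-0.11) the 4 of 10 without overlap, against 39.7% of all genes. With shScr in the training experiment the same 2 genes differed by -0.002 (Bmi1) and 0.01 (Rnf2) on the log2 scale.

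Other genes of the pathway were read as 5 lists. Of the 4 Elongin subunits and partners of Epop (Eloa, Elob, Eloc and Usp7), Eloa, the large Elongin subunit, was higher with shH2afy in the depletion experiment (46.6 ± 2.05 CPM in shH2afy mice and 35.1 ± 1.97 CPM in shScr mice; log2 0.47, edgeR adjusted p = 0.00953). It was also called higher in trained (0.38, adjusted p = 0.00211) and untrained (0.29, adjusted p = 0.0219) mice labelled shH2afy. Eloc, Elongin C, which binds Epop, was lower in the same 2 comparisons of the training experiment (log2 -0.54, edgeR adjusted p = 0.0024 in trained, and -0.49, adjusted p = 0.00124 in untrained mice), and had -0.46 (adjusted p = 0.0158) in the depletion experiment. Of the 4 genes, 1 was thus called in the depletion experiment, where 17.1% of all genes were. In trained and in untrained mice 1 was higher and 1 lower, where 46% and 47.9% of all genes were called, so these shares were near those of all genes.

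Of 21 other PRC1 genes 1 was called with shH2afy in the depletion experiment, where 17.1% of all genes were. Cbx7, a reader of methylated lysine 27, was at 41.2 ± 3.50 CPM in shH2afy mice and 65.6 ± 1.76 CPM in shScr mice (log2 -0.61, edgeR adjusted p = 0.00437), and it was also lower against shH2afy2 mice (-0.51, adjusted p = 0.00941). Of 20 tested in the training experiment, 3 were lower and 0 higher in trained mice labelled shH2afy (Cbx7, Phc1 and Yaf2), and 4 lower (Cbx7, Phc1, Bcorl1 and Auts2) and 1 higher (Bcor) in untrained mice. These shares were below the 46% (trained) and 47.9% (untrained) of all genes called. Of 7 genes of the enzymes that remove Polycomb marks, Bap1, the enzyme that removes ubiquitin from histone H2A, was lower in the depletion experiment (99.3 ± 11.1 CPM in shH2afy mice and 153.7 ± 11.4 CPM in shScr mice; log2 -0.57, edgeR adjusted p = 0.00953). It was also lower in trained (-0.39, adjusted p = 0.00664) and untrained (-0.33, adjusted p = 0.0244) mice labelled shH2afy, together with Foxk2 in both and Kdm6b in trained mice. The median log2 differences of these lists with shH2afy in the depletion experiment were -0.14 (Elongin and partners), -0.06 (PRC1) and 0.13 (removal of marks), against 0.01 over all genes.

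Of 7 other PRC2 genes, 6 passed the filter on low counts in the depletion experiment and none was called, Phf19 having the largest value (log2 1.83, SE 0.487, edgeR adjusted p = 0.0253). Rbbp7, a histone-binding subunit, was lower in trained (-0.42, adjusted p = 0.0113) and untrained (-0.39, adjusted p = 0.0023) mice labelled shH2afy, and Phf1 in trained mice. Of 26 developmental genes that are Polycomb targets in many tissues, 7 passed the filter in the depletion experiment and 0 were called. In the training experiment 13 passed in trained mice, of which 5 were higher (Hoxb3, Hoxb4, Cdkn2a, Cdkn2b and Gata2) and 1 lower (Lhx2) with the label shH2afy, and 14 in untrained mice, of which 5 were higher (Hoxb3, Hoxb4, Cdkn2a, Cdkn2b and Gata3) and 1 lower (Nkx2-1). Of all genes, 46% were called in trained and 47.9% in untrained mice, so the called shares of the list lay near those of all genes. Hoxb3 had the largest log2 difference in untrained mice (3.56), with 0.927 ± 0.209 CPM with shH2afy and 0.0783 ± 0.0185 CPM with shScr. At that shScr level it passed the filter on low counts through the shH2afy group alone, so its difference is a description. The median over the 14 genes was 0.37 on the log2 scale, against 0.001 over all genes. Other genes of the list could have passed the filter in the same way. The counts of higher genes and this median are therefore descriptions too. With shH2afy2, and between trained and untrained mice, no gene of the 5 lists was called. In these comparisons edgeR called 0% of all genes in mice with virus and 0.0959% in mice without. They therefore cannot show whether the lists stayed unchanged.

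MacroH2A at the 10 loci was read from the broad domains called in each library, as the percent of the locus (the gene with 2 kb upstream) that they covered. Of the 10 genes, Epop, Ezh1 and Ring1 carried domains in several libraries, Jarid2 a short one in every library, and the other 6 hardly any. The 2 untrained mH2A1 libraries of 1 h are named mH2A1 in their titles and mH2A2 in their antibody labels. They covered 565.9 and 646.3 Mb of the genome, within or near the 569.2 to 636.2 Mb of the other mH2A1 libraries of 1 h and 6 h and above the 309.7 to 445.9 Mb of mH2A2 libraries of 1 h, and counts are given with and without them where they matter. The mH2A1 antibody of 30 min was another product than that of 1 h and 6 h.

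At Epop (chr11:97627389-97629702 in mm10, minus strand), mH2A1 domains flanked the gene and left its start free. A domain touched the locus in 12 of 19 mH2A1 libraries, and the start site lay inside one in 0 of 19, or 0 of 17 without the 2 libraries above. No mH2A1 library had a domain over the bins from -0.3 to 1.1 kb around the start, whereas 18 of 19 had one at 5.7 kb upstream and 17 of 19 at 4.5 kb downstream. mH2A2 domains touched the locus in 6 of 11 libraries and held the start site in 5 of them. The mean covered share of the locus was 19.5% ± 18.0 (SD, n = 19 libraries) for mH2A1, more than at 69.6% of all genes, and 42.5% ± 43.6 (n = 11) for mH2A2, more than at 72.4%. A start free of mH2A1 domains was not particular to Epop. Of the other genes described, only Ring1 had its start inside one, in 1 of 19 libraries.

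**Figure D4:**
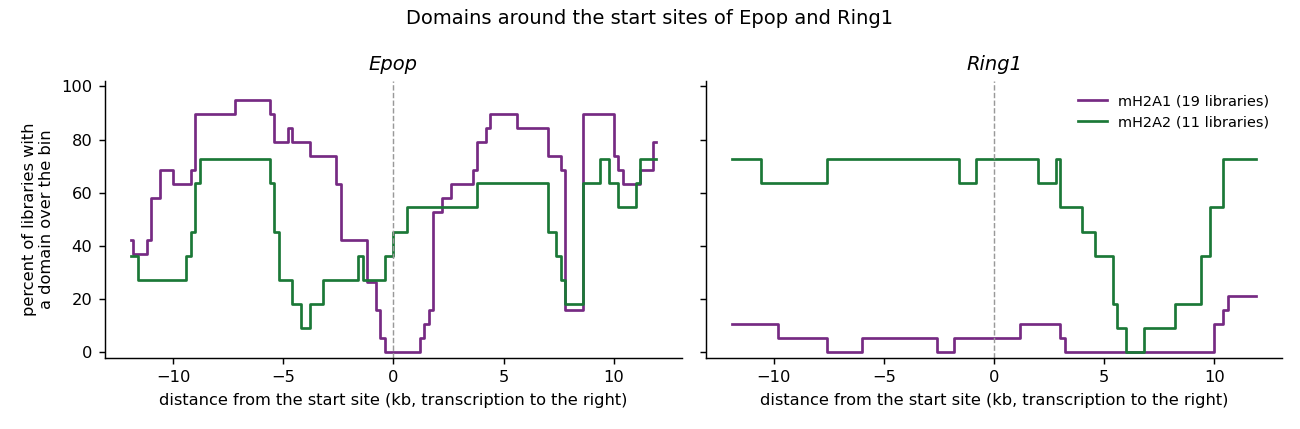
Percent of libraries with a domain over each 200-base bin (vertical axis) against the distance from the start site in kb (horizontal axis, transcription to the right) at Epop and Ring1, for 19 mH2A1 and 11 mH2A2 libraries. At Epop the mH2A1 line falls to 0 over the start between flanks of up to 18 of 19 libraries, and at Ring1 the mH2A2 line stands at 8 of 11 over the start, where that of mH2A1 is at 1 of 19.

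Domain cover at Epop varied between mice of a group, and training moved it past no threshold. At 6 h, mH2A1 covered 44.4%, 30.5%, 44.4%, 35.1% and 28.1% of the locus in trained mice, against 0%, 30.5%, 39.7%, 14.2% and 0% in untrained mice. All trained mice had a domain and 3 of 5 untrained mice did, but the groups overlapped. The difference was 19.6 percentage points (limma SE 8.7, unadjusted p = 0.0497, adjusted p = 0.865), and the exact two-sided permutation test gave p = 0.0714, where 5 against 5 can reach 0.00794. At 1 h, mH2A1 covered 16.3% and 49.0% in trained mice, against 0% and 0% in the 2 untrained libraries with the doubtful label (difference 32.6 points, limma adjusted p = 0.721). At 30 min it covered 0% and 0% in trained, against 0%, 14.2% and 23.5% in untrained mice (-12.6 points, limma adjusted p = 0.628), so the direction was not shared by the 3 times. The median difference over all genes tested was -5.8 points at 30 min, 0.911 at 1 h and -0.162 at 6 h.

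mH2A2 at Epop covered 0% and 0% of the locus in trained mice at 30 min, against 0%, 65.2% and 53.6% in untrained mice (-39.6 points, limma adjusted p = 0.73). Cover was lower in trained mice over all genes tested as well, with a median difference of -6.29 points. At 1 h it covered 100%, 55.9% and 0% in trained, against 0%, 100% and 93.0% in untrained mice (-12.4 points, limma adjusted p = 1). Libraries of 1 group thus differed by the whole locus. They also differed in cover over all genes. The first untrained library of each time, at 0% here, had 47.4% (30 min) and 51.1% (1 h) of all genes at 0%. The trained libraries of 30 min had 41.2% and 59.8%, and the third trained library of 1 h, also at 0% here, had 37.4%. In the 3 untrained mice of 30 min with both antibodies, the mean was 12.6% for mH2A1 and 39.6% for mH2A2 (-27.1 points, limma with the mouse as a block, adjusted p = 0.478).

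Ring1 was the locus most covered by mH2A2. Ring1 (chr17:34020792-34024680, minus strand) had its start site inside an mH2A2 domain in 8 of 11 libraries and inside an mH2A1 domain in 1 of 19. The mH2A2 domain with the highest ChIP over input at the locus was 3.8 to 56.0 kb long by library, and the locus is 5.889 kb. The longer domains thus reached well past the gene and were not confined to its promoter. The mean covered share was 6.08% ± 19.9 (n = 19) for mH2A1 and 67.8% ± 44.4 (n = 11) for mH2A2, and the mH2A2 share was more than at 91.1% of all genes. By library, mH2A2 covered 100% and 0% of the locus in trained, against 0%, 100% and 86.3% in untrained mice at 30 min, and 100%, 72.7% and 100% in trained, against 0%, 100% and 86.4% in untrained mice at 1 h. Cover was 72.7% or more in 8 libraries and 0% in the other 3. Those 3 were the mH2A2 libraries with the most genes at 0% cover (47.4% to 59.8% of all genes). In the 8 libraries with cover at Ring1 this share was 37.1% to 44.9%. mH2A1 covered 34.0% and 0% in trained, against 0%, 81.5% and 0% in untrained mice at 30 min, and 0% in each of the 14 libraries of 1 h and 6 h, the 2 with the doubtful label included. In the untrained mice with both antibodies the difference was -34.9 points (limma with the mouse as a block, SE 21.2, adjusted p = 0.517), so the contrast between the antibodies was not past the test in the mice where it could be tested.

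**Figure D5:**
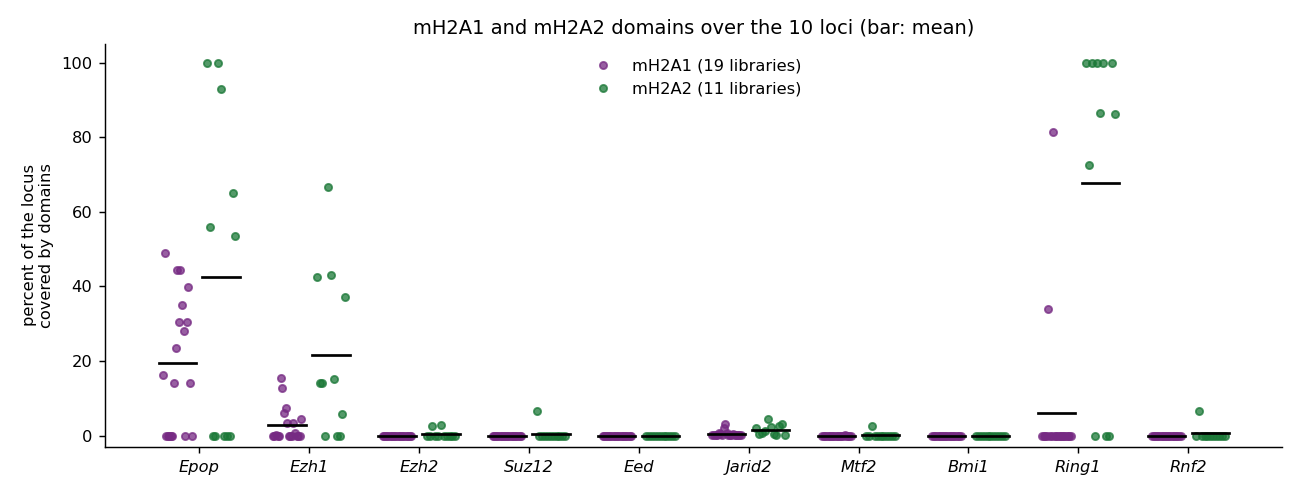
Percent of each locus (gene and 2 kb upstream, vertical axis) covered by mH2A1 domains in 19 libraries and mH2A2 domains in 11 libraries. Points are libraries of all times and both training states and bars are means. Epop averages 19.5% for mH2A1 and 42.5% for mH2A2, Ring1 6.08% and 67.8%, and Ezh2, Suz12, Eed, Mtf2, Bmi1 and Rnf2 lie at or near 0 for both.

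Ezh1, on the same chromosome as Epop (chr11:101191115-101226463, minus strand), had domains in 9 of 19 mH2A1 libraries, covering 2.85% ± 4.65 on average, and in 8 of 11 mH2A2 libraries, covering 21.7% ± 22.3. Its start site was inside a domain in 0 and 1 of them. At Jarid2 a domain was present in all 30 libraries, and the one with the highest ChIP over input was 0.4 to 1.2 kb long (mH2A1) or up to 2.6 kb (mH2A2). Some libraries held more, such as the second untrained mH2A2 library of 1 h, with 4 domains over 4.55% of the locus. One stretch of 0.4 kb, chr13:44869601-44870000, was inside a domain in 30 of 30. It lies 140.1 kb downstream of the start, in an intron and 4.283 kb from the nearest exon. Input reads were dense there as well. In the first trained mH2A1 library of 1 h its domain held 76 input reads in 0.4 kb, against 204 in 7.8 kb at Epop. The part of such dense input in the calls at this stretch was not tested.

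Ezh2, the subunit whose RNA was highest relative to shScr in shH2afy mice, had no mH2A1 domain in its locus in any of 19 libraries, the nearest lying 10.1 kb or more from its start. Cover by mH2A2 was rare as well, with a domain of 1.8 or 2.0 kb over the Ezh2 start in 2 of 11 libraries. Eed and Bmi1 had no domain of either variant in any library. Suz12 and Rnf2 had one in 0 of 19 mH2A1 and 1 of 11 mH2A2 libraries, and Mtf2 in 1 of 19 and 1 of 11. Over all genes the mean cover was 21.3% for mH2A1 and 25.5% for mH2A2, with medians of 4.36% and 15.8%.

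None of the 10 genes was called in any of the 6 comparisons of domain cover at an adjusted p of 0.05. Between trained and untrained mice, limma called 17 of 16033 genes for mH2A1 at 30 min (0.106%; 1402 at an unadjusted p under 0.05), and 0% for mH2A2 at 30 min (937 unadjusted), mH2A1 at 1 h (707), mH2A2 at 1 h (252) and mH2A1 at 6 h (570). Between the antibodies it also called 0% (1652 unadjusted). Epop at 6 h was the only one of the 10 genes with an unadjusted p under 0.05. At 1 h, Epop was the 1 gene of 3 with any mH2A1 cover whose groups did not overlap, against 28.2% of all genes. In the other comparisons the groups overlapped for each of the 10 genes, while 22.2% (mH2A1, 30 min), 17.7% (mH2A2, 30 min), 4.27% (mH2A2, 1 h), 0.523% (mH2A1, 6 h) and 17.2% (between antibodies) of all genes had groups that did not. Of the 10 genes, 3 to 8 had cover in at least 1 library of a comparison, and the others were at 0% throughout.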

How the data were processed

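RNA and ChIP libraries of mouse CA1 were analysed from the deposited files. The authors aligned RNA reads to mm10 with STAR and deposited raw read counts per gene from featureCounts. For the training experiment ribosomal RNA had been depleted and introns were counted. ChIP reads were aligned with Bowtie2, and broad domains were called in each library against its input (the labels name SICER, the methods epic2). The deposited domain lists give the p-value, the FDR (q-value) and the log2 of ChIP over input of each domain, and hold domains under an FDR of 0.05.

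The counts were tested with edgeR 4.0.16 (R 4.3.3): TMM, filterByExpr, quasi-likelihood test, Benjamini-Hochberg adjustment over all genes, with only the groups compared in each fit, except the interaction, which used 12 libraries. Thresholds were 0.01 (depletion and mice without virus) and 0.05 (training experiment). Domain cover in 200-base bins over GENCODE loci was tested with limma 3.58.1, with the mouse as a block between antibodies, and at 6 h also by an exact permutation test. DESeq2 1.42.0, RLE scaling, no filter, all libraries in one fit, a replicate block and leaving out each mouse were the alternatives. For domains they were a stricter FDR, another window, a threshold on cover and subtraction of the genome-wide cover. Scripts were tested on simulated data.

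Trained and untrained shScr mice of one replicate number had deviations that correlated at 0.152, 0.139 and 0.207, each mouse closest to its own number. The values printed for them come from the fit without pairs. A replicate block, run as an alternative, called no gene there, as without it. Replicates are labelled as separate mice. The members and lists, and the rule that printed genes are the 10 members, the genes nearest to Epop and list genes past the threshold, were chosen with earlier results of these data known. Promoters came from RefSeq (GRCm38.p6). The input libraries enter only through the domain calls.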

Additional observations from a re-analysis of the deposited data

Results flagged for a closer look

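In 3 of 7 sets of 5 libraries with any spread, 1 library lay far from the other 4, all 3 among untrained mH2A1 libraries of 6 h. Ezh1 was covered to 4.453% in replicate 5, with the other mice at 0% or 0.704%. Jarid2 was covered to 0.309% in replicate 5, against 0.206% in each other mouse, a difference of one bin of 200 bases. Mtf2 was covered to 0.2802% in replicate 1 and 0% in the others. Chance alone sets apart about 1 in 20 such groups, and for groups mostly at 0% any single covered library is set apart.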

How the results depend on the processing

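Results were recomputed under each alternative, and no called value changed sign. Of the subunits called with shH2afy against shScr in the depletion experiment (1), DESeq2 and the fit with all libraries gave 2 (Ezh2 and Eed), and leaving out 1 mouse gave 0 to 2. Against shH2afy2 (0), DESeq2, no filter on low counts and all libraries in the fit each gave 1, Ezh2, and leaving out 1 mouse gave 0 to 1. Leaving out 1 mouse gave 2 to 5 genes in untrained mice (4) and 1 to 3 in trained mice (3) of the training experiment. Where leaving out a mouse left 1 in a group, as in trained mice without virus, the lone mouse is assumed to vary like the others.

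The replicate numbers of the other RNA comparisons had correlations of deviations from -0.304 to 0.509, and in no such comparison was each mouse closest to its own number. A replicate block gave 0 subunits for shH2afy against shScr in the depletion experiment (Ezh2 log2 1.31, edgeR adjusted p = 0.0219), 1 against shH2afy2, 1 in trained mice and 3 in untrained mice. It changed no other count of the 10 genes.

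Over all genes, DESeq2 called 4382, against 2759 by edgeR, for shH2afy and 4661, against 2699, for shH2afy against shH2afy2. Without the filter these were 4339 and 4859, and with the block 1194 and 3716. For shH2afy2, edgeR without the filter called 726 genes, against 0. In mice without virus the counts were 51 without the filter and 0 with the block, against 15. All libraries in one fit called 6 genes for training with shScr, against 0. Leaving out 1 mouse gave 1012 to 3570 genes for shH2afy against shScr, 2 to 3432 for shH2afy against shH2afy2 and 1 to 416 in mice without virus. Of single genes under the alternatives that kept every mouse, 591 values stayed on their side of the threshold with little movement, 10 passed it newly, 4 lost it and 19 moved without a call. Domain cover of the 10 genes gave 0 calls under every alternative run. Depth limits Ezh2, at 53 to 77 reads in shScr libraries of the depletion experiment, and groups of 2 to 5 mice limit domain cover.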
